A study of Mus musculus with 8 samples.

Results

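The genes described here are 9 genes of peroxisome proliferator-activated receptor (PPAR) signalling and fatty acid handling, chosen by symbol from the 22520 genes of an mRNA-seq table: Pparg, Ppargc1a, Cd36, Fabp4, Fabp5, Angptl4, Plin2, Cpt1a and Pdk4. All 9 were listed in the table, and 8 passed the filter on low values (at least 1 in at least 4 libraries), which left 11389 genes for testing. Ppargc1a did not pass. The table covered microvascular cells pooled from heart, lung and liver of C57BL/6 mice at postnatal day 14. It held 4 wild-type libraries (WT) and 4 libraries from mice with a knockout of Lrp1 (LRP1 KO), which the study describes as endothelial. Lrp1 encodes the low-density lipoprotein receptor-related protein 1. In the study's methods, the knockout mice carried LRP1 f/f; Cdh5-CreER+/- and their littermate controls LRP1 f/f; Cdh5-CreER-/-, so both groups shared the floxed allele and the controls lacked the Cre. The Cre is a tamoxifen-inducible recombinase under the promoter of Cdh5, the vascular endothelial cadherin, and endothelial cells were captured on magnetic beads that bind PECAM-1. The labels do not say whether each library came from 1 animal, so the p-values measure the spread between these libraries. Values are FPKM, fragment counts corrected for the length of the transcript and for the size of the library, a unit inferred here because the header names none. Because they were quantile normalized before deposit, sequencing depth is unknown.

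PPARs are nuclear receptors that bind DNA together with a retinoid X receptor (RXR) and switch on genes of lipid metabolism when fatty acids or related ligands occupy them. PPARγ, encoded by Pparg, is best known from adipocytes and macrophages and is also present in endothelial cells of metabolic tissues, where Cd36 and Fabp4 are among its known targets. Capillary endothelial cells of heart and muscle take fatty acids from the blood, after lipoprotein lipase has freed them from triglycerides, and pass them to the tissue. The comparison of LRP1 KO with WT asks how the levels of these genes differ between the pooled cells of these mice. The question follows from earlier work cited by the study, which linked endothelial LRP1 to PPAR activity. That work used a knockout made with a different Cre.

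Lrp1 was 103 to 140 FPKM in WT and 2.79 to 7.72 FPKM in LRP1 KO, with no overlap. Endothelial markers were present but not leading: Pecam1 was 6.80 to 8.76 FPKM and Cdh5 8.87 to 11.2 FPKM in WT, and the summed level of 20 endothelial markers was 189 to 208 FPKM beside 2934 to 4177 FPKM for 13 markers of fibroblasts and stroma. In LRP1 KO the sum for fibroblasts and stroma was 2654 to 3870 FPKM, while mean Lrp1 was 3.99% of WT. The fall of Lrp1 was thus measured in mixed cells, and which cells lost it was not tested. The endothelial sum in LRP1 KO libraries 1 to 4 was 706, 431, 513 and 195 FPKM, so that library 4 lay within the WT range. That library was also nearest to WT on the first principal component. The 10 adipocyte markers summed to at most 2.09 FPKM in any library, and none passed the filter. The sum of 4 Y-linked genes was near 0 in WT library 4 and LRP1 KO library 2 and 21.6 FPKM or more elsewhere, so 1 library of each group stood apart in sex-linked expression. Of 11389 tested genes, 13.6% had an adjusted p under 0.05 with limma, 6.27% higher and 7.31% lower in LRP1 KO. Of the 8 tested genes described here 1, Cd36, was past this threshold (12.5%), a share near the background. The groups did not overlap for 2 of the 8, Cd36 and Fabp5, both with LRP1 KO higher, beside 8.84% of all tested genes in that direction and 19.6% in either.

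**Figure D1:**
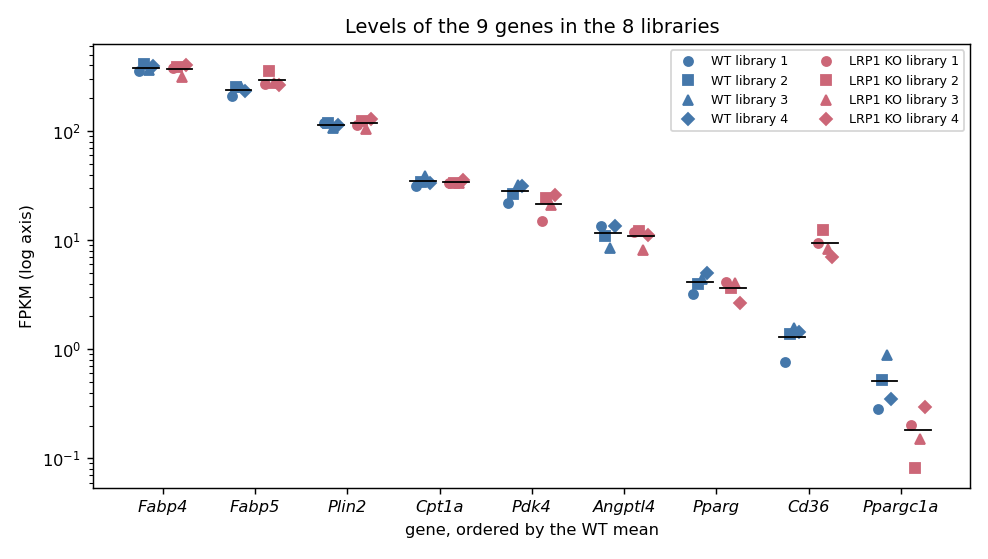
Level of each gene in FPKM, on a log axis, in the 4 WT and 4 LRP1 KO libraries; each symbol is 1 library and each bar is the group mean. Cd36 rose from a mean of 1.29 to 9.34 FPKM, while Fabp4, Plin2, Cpt1a and Angptl4 had overlapping groups.

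Pparg, the receptor itself, had values of 3.18, 3.94, 4.36 and 5.05 FPKM across WT libraries 1 to 4, against 4.14, 3.67, 4.08 and 2.66 FPKM across LRP1 KO libraries 1 to 4. The groups overlapped, with the highest value in WT library 4 and the lowest in LRP1 KO library 4. Its means were 4.14 ± 0.783 FPKM in WT against 3.64 ± 0.682 FPKM in LRP1 KO (SD, n = 4 each). On the log2(FPKM + 1) scale, used for all log2 fold changes here, it differed by -0.15 (SE 0.14, 95% interval -0.46 to 0.17, adjusted p = 0.492, limma). Pparg lies on chromosome 6 (115360951 to 115490399, plus strand, GRCm38).

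Ppargc1a encodes PGC-1α, a coactivator of PPARs that drives genes of mitochondria and fatty acid oxidation. It was the lowest of the 9, at 0.286, 0.521, 0.888 and 0.349 FPKM across WT libraries 1 to 4, against 0.201, 0.0822, 0.152 and 0.295 FPKM across LRP1 KO libraries 1 to 4. The groups overlapped only through WT library 1, whose 0.286 FPKM lay below the 0.295 FPKM of LRP1 KO library 4. Means were 0.511 ± 0.270 and 0.182 ± 0.0895 FPKM (SD, n = 4 each). The difference in mean log2(FPKM + 1) was -0.34, with an exact two-sided permutation p of 0.0571 over the 70 ways to choose 4 of 8 libraries, where the smallest p possible is 0.0286. Levels this low were not tested in the fit across genes.

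Of the other receptors and cofactors, Ppard, which encodes the PPAR found in most tissues, was the highest PPAR at 17.4 ± 1.07 FPKM in WT against 15.7 ± 0.325 FPKM in LRP1 KO (SD, n = 4 each; log2 fold change -0.13, adjusted p = 0.144). Ppara, the receptor known for hepatic fatty acid oxidation, was at most 0.470 FPKM. Among the RXR partners, Rxra had non-overlapping groups, 15.7 to 17.6 FPKM in WT and 13.2 to 15.6 FPKM in LRP1 KO, and did not pass the test (log2 fold change -0.23, adjusted p = 0.0592). Rxrb had a log2 fold change of -0.15 and an adjusted p of 0.248. None of the 12 tested genes of this list was past the threshold, and their median log2 fold change was -0.091, beside -0.0091 over all tested genes.

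Cd36, the fatty acid translocase, is a scavenger receptor that brings long-chain fatty acids and oxidized lipoproteins into capillary endothelial cells, macrophages, adipocytes and muscle. It was 0.765, 1.39, 1.56 and 1.43 FPKM across WT libraries 1 to 4, against 9.45, 12.5, 8.38 and 7.01 FPKM across LRP1 KO libraries 1 to 4. Every LRP1 KO library was higher than every WT library, with a ratio of 4.50 between the lowest LRP1 KO and the highest WT library. The mean rose from 1.29 ± 0.355 to 9.34 ± 2.34 FPKM (SD, n = 4 each), a ratio of 7.27. The log2 fold change was 2.17 (SE 0.17, 95% interval 1.78 to 2.55, adjusted p = 0.000389, limma), number 20 by size of rise among the 11389 tested genes. Cd36 was also among the 1.62% of tested genes with both an adjusted p under 0.05 and a log2 fold change of at least 1 in either direction. The call held in each of the 8 fits that left out 1 library. It was lost when the macrophage marker score was added as a covariate (log2 fold change 1.82, adjusted p = 0.0642), and kept with the endothelial score in its place (2.01, adjusted p = 0.00516). Cd36 lies on chromosome 5 (17781690 to 17888801, minus strand).

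Markers of macrophages and other leukocytes moved with Cd36. Of the 17 macrophage markers listed, 11 were tested and 8 rose, and their summed level was 372 to 395 FPKM in WT and 565 to 917 FPKM in LRP1 KO. The Kupffer cell marker Clec4f was at most 0.0152 FPKM. Of the 11 leukocyte markers listed, 7 were tested and 6 rose, with sums of 7.89 to 13.7 FPKM in WT and 48.2 to 95.7 FPKM in LRP1 KO, a ratio of means of 6.36, while the lymphocyte marker Cd3e was at 0 in every library. All 18 tested endothelial markers had a positive log2 fold change and 1 of them rose. In LRP1 KO library 4 Cd36 was 5.46 times the WT mean, the endothelial sum was 195 FPKM and the macrophage sum 857 FPKM. Expressed as a share of the leukocyte marker sum, a ratio formed after the values were seen, Cd36 was 9.69 to 14.2% in WT and 9.22 to 17.4% in LRP1 KO, and the groups overlapped. As a share of the macrophage sum it was 0.197 to 0.395% and 0.818 to 1.48%, with no overlap. Lgals3 gave 257 to 284 FPKM of that sum in WT and 323 to 368 FPKM in LRP1 KO. The ratio of LRP1 KO to WT means differed among the macrophage markers, at 7.77 for Ctss, 6.33 for Lyz2, 1.27 for Lgals3, 0.960 for Mertk (adjusted p = 0.800, limma) and 0.722 for Cd14 (adjusted p = 0.136). In such bulk libraries more cells of a type and more RNA per cell cannot be told apart. The macrophage score did not overlap between the groups, at 1.94 to 2.27 in WT and 2.74 to 3.61 in LRP1 KO. The fit with that covariate therefore could not separate these cells from the knockout, and their part in the rise of Cd36 was not tested.

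**Figure D2:**
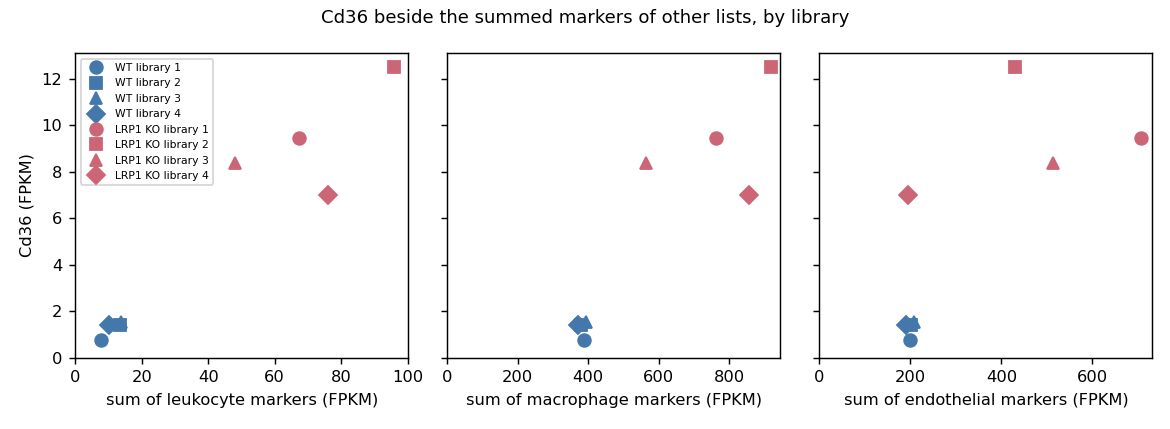
Cd36 in FPKM against the summed FPKM of the leukocyte, macrophage and endothelial markers, with 1 symbol for each of the 4 WT and 4 LRP1 KO libraries. LRP1 KO library 4, at 7.01 FPKM of Cd36, sits with the WT libraries on the endothelial axis and apart from them on the leukocyte and macrophage axes.

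The tested genes whose profile over the 8 libraries lay nearest to that of Cd36 were Gp49a and Lilrb4, at root mean square distances of 0.12 and 0.17 between centred log2(FPKM + 1) profiles, beside a median of 1.12 over all tested genes. Gp49a was 0.414 to 1.32 FPKM in WT and 6.41 to 11.6 FPKM in LRP1 KO. Lilrb4 was 0.885 to 1.59 and 7.51 to 13.6 FPKM. The transcript of Lilrb4 shares 100% of its 50-base stretches with those of other annotated genes, so the split of fragments between such copies is uncertain. Gp49a and Lilrb4 are themselves close copies and are not separate matches.

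PPARs with RXR bind a direct repeat of the hexamer AGGTCA with 1 base between the copies. The promoters of Cd36, Cpt1a and Plin2 (250 bases before to 50 after the start, RefSeq on GRCm38.p6) are shown because each holds 1 such hexamer on the reverse strand, in capitals as TGACCT, while only Cd36 passed the test. They are chr5:17835847-17836146 on the minus strand for Cd36, chr19:3323051-3323350 on the plus strand for Cpt1a and chr4:86670010-86670309 on the minus strand for Plin2, each written 5′ to 3′ along its gene.
Cd36: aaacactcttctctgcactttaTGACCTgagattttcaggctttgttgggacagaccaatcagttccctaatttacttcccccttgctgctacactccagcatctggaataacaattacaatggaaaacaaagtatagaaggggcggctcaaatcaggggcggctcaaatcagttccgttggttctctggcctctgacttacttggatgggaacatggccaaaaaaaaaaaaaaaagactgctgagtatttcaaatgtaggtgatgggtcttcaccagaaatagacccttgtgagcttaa
Cpt1a: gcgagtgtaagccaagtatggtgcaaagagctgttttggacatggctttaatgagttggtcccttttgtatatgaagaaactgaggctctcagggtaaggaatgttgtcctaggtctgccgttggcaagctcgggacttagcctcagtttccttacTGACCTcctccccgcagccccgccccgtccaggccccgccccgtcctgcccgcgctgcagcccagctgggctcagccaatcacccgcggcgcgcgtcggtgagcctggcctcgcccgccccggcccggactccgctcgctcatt
Plin2: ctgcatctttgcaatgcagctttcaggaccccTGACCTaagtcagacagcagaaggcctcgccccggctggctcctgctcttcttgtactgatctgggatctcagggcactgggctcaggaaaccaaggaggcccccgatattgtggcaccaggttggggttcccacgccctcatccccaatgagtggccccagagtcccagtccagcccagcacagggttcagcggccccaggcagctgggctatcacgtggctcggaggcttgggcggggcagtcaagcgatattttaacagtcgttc

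The windows of Cd36 and Cpt1a lie within the genes' GENCODE spans, so each covers 1 of the possible starts. The capitals begin at position -228 from the start in Cd36, -94 in Cpt1a and -218 in Plin2. Sequences were matched for 6 of the 9 genes, as 8 promoters. AGGTCA was present on either strand in 5 of these 8, also in 2 of the 3 Pparg promoters and not in those of Pdk4 and Ppargc1a, beside 16.3% of all 32851 promoters. The full direct repeat of the hexamer, with any 1 base between the copies and searched on both strands, was found in none of the 8 and in 0.0396% of all promoters. A match describes the letters only.

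Fabp4 and Fabp5 encode small cytosolic proteins that bind fatty acids and carry them within the cell, Fabp4 in adipocytes, macrophages and capillary endothelium and Fabp5 in many cell types. The genes lie near each other on chromosome 3, at 10204088 to 10208576 (minus strand) and 10012548 to 10016607 (plus strand), 187480 bases apart. Fabp4 had the highest level of the 9 genes, at 359, 411, 361 and 395 FPKM across WT libraries 1 to 4, against 377, 383, 315 and 405 FPKM across LRP1 KO libraries 1 to 4. The groups overlapped. Its means were 382 ± 25.7 and 370 ± 38.8 FPKM (SD, n = 4 each), with a log2 fold change of -0.048 (SE 0.085, 95% interval -0.24 to 0.14, adjusted p = 0.723, limma). Fabp4 exceeded Cd36 by a ratio of means of 297 in WT and 39.6 in LRP1 KO.

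Fabp5 was 208, 253, 256 and 235 FPKM across WT libraries 1 to 4, against 268, 355, 277 and 267 FPKM across LRP1 KO libraries 1 to 4. All LRP1 KO values lay above all WT values, library 2 standing well above the rest. The means were 238 ± 22.0 and 292 ± 42.2 FPKM (SD, n = 4 each), a ratio of 1.23. The log2 fold change of 0.29 (SE 0.10, 95% interval 0.054 to 0.52) did not pass the test across genes (adjusted p = 0.091, limma), while the exact permutation p of the single gene was 0.0286, the smallest that 4 against 4 libraries allow. With the endothelial score as a covariate the log2 fold change was 0.29 (SE 0.15, adjusted p = 0.546, limma), and with the macrophage score -0.024 (SE 0.23, adjusted p = 0.959). Of the 50-base stretches of its transcript, 21.1% occur in transcripts of other genes, 19.6% in Gm6166, so the assignment of some fragments is uncertain. Fabp5 was 57.9 to 70.8% of Fabp4 in WT and 65.9 to 92.5% in LRP1 KO, and these ranges overlapped. Of the same family, Fabp3, the heart form, was 27.7 ± 4.20 FPKM in WT against 25.1 ± 1.88 FPKM in LRP1 KO (SD, n = 4 each; adjusted p = 0.428).

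Angptl4 encodes a secreted inhibitor of lipoprotein lipase and is induced by fatty acids through PPARs. It was 13.6, 10.9, 8.57 and 13.4 FPKM across WT libraries 1 to 4, against 11.8, 12.2, 8.09 and 11.2 FPKM across LRP1 KO libraries 1 to 4. Library 3 was the lowest of each group, and the groups overlapped. The means were 11.6 ± 2.38 and 10.8 ± 1.88 FPKM (SD, n = 4 each), with a log2 fold change of -0.085 (SE 0.16, 95% interval -0.44 to 0.27, adjusted p = 0.738, limma). The enzyme it inhibits, Lpl, fell: it was 167, 188, 239 and 238 FPKM across WT libraries 1 to 4, against 100, 106, 102 and 173 FPKM across LRP1 KO libraries 1 to 4 (log2 fold change -0.81, SE 0.19, adjusted p = 0.0261, limma). LRP1 KO library 4 lay within the WT range, and the call held in only 2 of the 8 fits without 1 library. It was also lost with either marker score as a covariate. The log2 fold change was then -0.37 with the endothelial score (adjusted p = 0.48, limma) and -1.45 with the macrophage score. Lpl and Cd36 were the only 2 of the 15 tested genes of fatty acid uptake and transport past the threshold (13.3%, near the 13.6% of all tested genes), and they moved in opposite directions. Lpl was the only 1 of 5 among lipoprotein lipase and its regulators.

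Plin2 coats lipid droplets in most cells and is induced when they store fatty acids. It was 119, 119, 108 and 113 FPKM across WT libraries 1 to 4, against 113, 124, 105 and 129 FPKM across LRP1 KO libraries 1 to 4, with the lowest and the highest value both in LRP1 KO. The means were 115 ± 5.56 and 118 ± 10.6 FPKM (SD, n = 4 each), with a log2 fold change of 0.034 (SE 0.071, 95% interval -0.13 to 0.19, adjusted p = 0.77, limma). Its relatives Plin3 and Plin4 had log2 fold changes of -0.19 (adjusted p = 0.0555) and -0.63 (adjusted p = 0.0521). Of the 13 tested genes of lipid droplets and lipolysis 2 passed the test (15.4%, near the 13.6% of all tested genes), Mgll, which splits monoacylglycerol and rose by 0.68 (adjusted p = 0.0494), and Lipe, the hormone-sensitive lipase, which fell by 0.54 (adjusted p = 0.0481, both on the log2 scale, limma). Each of these calls held in 2 of the 8 fits without 1 library.

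**Figure D3:**
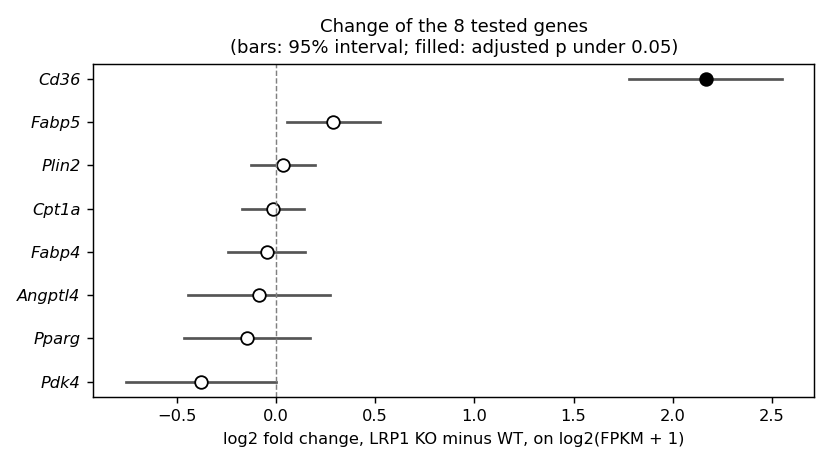
Log2 fold change of LRP1 KO against WT for the 8 tested genes, on the log2(FPKM + 1) scale; each point is the limma estimate and each bar its 95% interval. The interval of Cd36 runs from 1.78 to 2.55, and those of Pparg, Fabp4, Angptl4, Plin2 and Cpt1a include 0.

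Cpt1a encodes carnitine palmitoyltransferase 1, the rate-controlling step in the entry of long-chain fatty acids into mitochondria. It was 31.6, 34.1, 39.2 and 33.7 FPKM across WT libraries 1 to 4, against 33.3, 33.6, 33.7 and 35.9 FPKM across LRP1 KO libraries 1 to 4. The LRP1 KO values lay within the WT range, at means of 34.6 ± 3.22 and 34.1 ± 1.24 FPKM (SD, n = 4 each). The log2 fold change was -0.017 (SE 0.069, 95% interval -0.17 to 0.14, adjusted p = 0.886, limma). Of the other forms, Cpt1b, the muscle form, fell (log2 fold change -0.43, adjusted p = 0.0263) from 1.44 to 1.70 FPKM in WT to 0.683 to 1.20 FPKM in LRP1 KO. That call held in 1 of the 8 fits without 1 library. Cpt1c had a log2 fold change of -0.038 (adjusted p = 0.788).

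Pdk4 encodes pyruvate dehydrogenase kinase 4, which shuts the entry of pyruvate into the citric acid cycle when fatty acids are burned. It was 22.0, 26.8, 31.9 and 31.5 FPKM across WT libraries 1 to 4, against 15.1, 24.2, 21.0 and 25.7 FPKM across LRP1 KO libraries 1 to 4. LRP1 KO library 1 was the lowest, and the groups overlapped through WT library 1. The means were 28.0 ± 4.63 and 21.5 ± 4.69 FPKM (SD, n = 4 each), with a log2 fold change of -0.38 (SE 0.17, 95% interval -0.76 to -0.00011, adjusted p = 0.148, limma). With the endothelial score as a covariate it was -0.023, and with the macrophage score -0.90 (adjusted p = 0.163). The nearest profiles were those of Glul and Prrg3, at distances of 0.049 and 0.079 beside a median of 0.34. Of the other kinases, Pdk2 fell (-0.48, adjusted p = 0.0218), from 10.3 to 12.0 FPKM in WT to 6.33 to 8.78 FPKM in LRP1 KO, and Pdk1 and Pdk3 had log2 fold changes of 0.14 and -0.083 (adjusted p = 0.561 and 0.338). Pdp1, the phosphatase that reverses these kinases, also fell (-0.53, adjusted p = 0.0359), and no other of the 12 tested genes of this switch passed the test. These 2 are 16.7% of the list, near the 13.6% of all tested genes. The calls of Pdk2 and Pdp1 held in 4 and 1 of the 8 fits without 1 library.

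By mean FPKM the order in WT was Fabp4, Fabp5, Plin2, Cpt1a, Pdk4, Angptl4, Pparg, Cd36 and Ppargc1a. Of these neighbours only Cpt1a and Pdk4, and Cd36 and Ppargc1a, had overlapping ranges. In LRP1 KO the order was the same except that Cd36 stood above Pparg. There the ranges of Fabp4 and Fabp5, and of Angptl4 and Cd36, overlapped. No test was made between genes.

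The lists of fatty acid oxidation and synthesis lay mostly on the lower side in LRP1 KO. Of 24 tested genes of mitochondrial fatty acid oxidation, Cpt1a included, 23 had a negative log2 fold change and 7 fell (29.2%), beside 7.31% of all tested genes, and their median was -0.17. Echs1 and Hadh, which carry out the hydration and the second oxidation of the β-oxidation spiral, fell by 0.55 (adjusted p = 0.0148) and 0.35 (adjusted p = 0.0158) on the log2 scale. Ucp2, a carrier of the mitochondrial inner membrane, fell by 0.48 (adjusted p = 0.0167). Of 14 tested peroxisomal genes none passed the test, at a median of -0.12.

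Of 12 tested genes of fatty acid synthesis and desaturation, 11 had a negative log2 fold change (91.7%, beside 51.9% of all tested genes) and 5 fell (41.7%, beside 7.31%), at a median of -0.22. Fads2 and Fads1, the desaturases that make polyunsaturated fatty acids, fell by 0.42 (adjusted p = 0.0106) and 0.37 (adjusted p = 0.0112) on the log2 scale. Fads2 was 124 to 132 FPKM in WT and 83.3 to 107 FPKM in LRP1 KO. Elovl1, an elongase of very long chains, fell by 0.19 (adjusted p = 0.0269), and Scd2, which makes monounsaturated fatty acids, fell by 0.43 (adjusted p = 0.0327, limma). The calls of Elovl1 and Scd2 each held in 2 of the 8 fits without 1 library, and those of Fads1 and Fads2 in all 8. Over the 8 lists together, the 8 tested members included, 105 genes were tested, 74 of them on the lower side, and 18 were called, 2 higher (Cd36 and Mgll) and 16 lower. That is 70.5% on the lower side and 17.1% called, beside 51.9% and 13.6% of all tested genes.

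**Figure D4:**
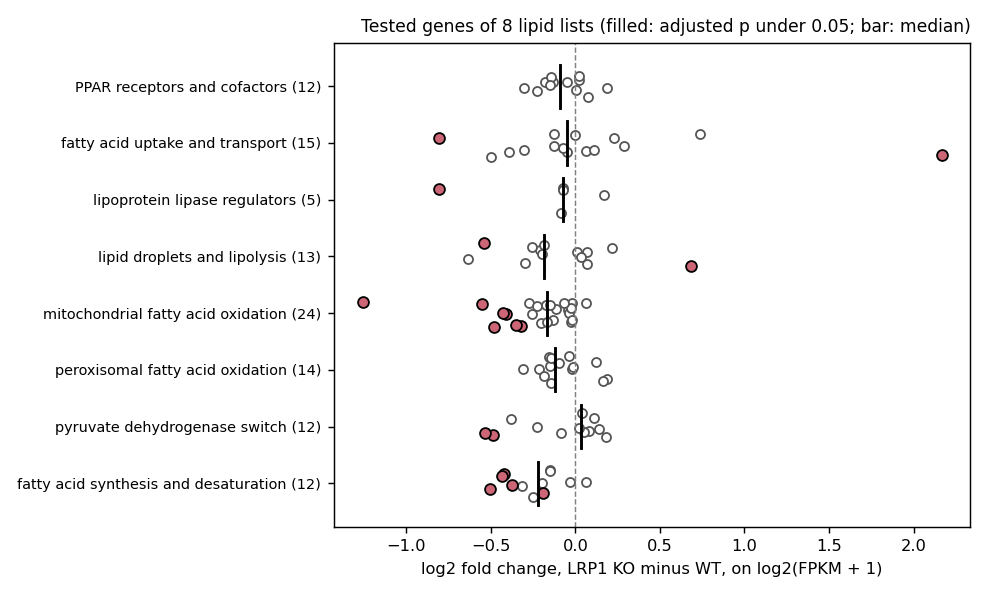
Log2 fold change of LRP1 KO against WT for each tested gene of 8 lists of lipid genes, with the number tested in brackets; filled points have an adjusted p under 0.05 and the bar is the median of the list. The oxidation and synthesis lists have medians of -0.17 and -0.22, and Cd36 stands alone at 2.17.

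The mean log2(FPKM + 1) of the 24 mitochondrial genes was 4.66 to 4.79 in WT and 4.44, 4.52, 4.39 and 4.59 in LRP1 KO libraries 1 to 4. For the 12 synthesis genes it was 5.46 to 5.64 in WT and 5.16 to 5.39 in LRP1 KO. Neither pair of ranges overlapped, and library 4, whose endothelial sum lay within the WT range, was the LRP1 KO library nearest to WT for the mitochondrial genes. Summed markers of cells rich in such enzymes were 102 to 156 FPKM in WT and 90.7 to 128 FPKM in LRP1 KO for cardiomyocytes, and 828 to 975 and 335 to 609 FPKM for hepatocytes. The cardiomyocyte sum was mostly Tnnt2 (log2 fold change -0.35, adjusted p = 0.107), while Myl7 averaged 1.34 FPKM across WT libraries against 3.96 FPKM across LRP1 KO libraries (adjusted p = 0.0631). The hepatocyte sum was mostly transferrin (Trf), which fell, whereas Ahsg rose (log2 fold change 0.91, adjusted p = 0.0326, limma) and Alb was at most 0.108 FPKM. Of the 12 tested markers of fibroblasts and stroma 3 fell, Pdgfra, Dpt and Thy1 (-0.96, -2.01 and -0.52), and 1 rose, and of the 7 tested mural markers 4 rose. Apart from Cd36, all 17 called genes of these lists lost their call when either the endothelial or the macrophage score was added, and 3 of them, Fads1 and Fads2 included, kept it in each of the 8 fits without 1 library. With the endothelial score 19 of the 24 mitochondrial and 12 of the 12 synthesis genes had a negative log2 fold change, and with the macrophage score 23 and 9. Echs1 was -0.31 (adjusted p = 0.280, limma) with the endothelial score and -0.91 (adjusted p = 0.0734) with the macrophage score, and Fads2 was -0.40 and -0.20 (adjusted p = 0.163 and 0.481). The mitochondrial falls numbered 2 to 4 without WT library 1, 2 or 4 or LRP1 KO library 1, 2 or 3, 5 without WT library 3, and 11 without LRP1 KO library 4. The synthesis falls numbered 2 or 3 without WT library 2, 3 or 4 or LRP1 KO library 1, 2 or 3, and 4 or 5 without either of the others. The part of cell makeup in these falls was not tested further.

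**Figure D5:**
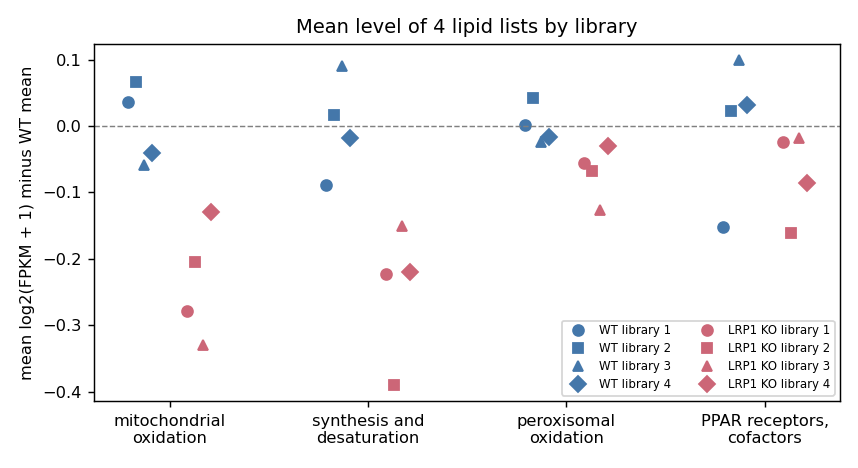
Mean log2(FPKM + 1) of the tested genes of 4 lists, minus the WT mean of the list, in the 4 WT and 4 LRP1 KO libraries. All LRP1 KO libraries lie below all WT libraries for mitochondrial oxidation, for synthesis and desaturation and, by a narrow margin, for peroxisomal oxidation, while the groups overlap for the PPAR receptors and cofactors.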

How the data were processed

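mRNA-seq was analysed in 8 libraries, 4 WT and 4 LRP1 KO, grouped by their titles. The submitters' processing notes name TopHat2, Cufflinks and the mouse genome build mm10, without versions or roles; the study's methods for related cells name other tools, so the steps behind this table are otherwise not given in the sources used here. The values deposited by the authors were taken as FPKM from their form, since the header names no unit. They had been quantile normalized: the sorted values of the 8 columns differed by a median of 0.575%, and the columns summed to 503571 to 504112. Depth is therefore unknown, counting error was not computed, and a broad one-way shift would not be visible. No 2 libraries held identical values. The values are not whole reads, so no count test was run.

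Genes with at least 1 FPKM in at least 4 libraries were kept. log2(FPKM + 1) was fitted with limma 3.58.1 in R 4.3.3, with the group as the only term and a variance prior that follows the mean level, with Benjamini-Hochberg adjustment of the p-values over all 11389 tested genes. A gene was called at an adjusted p under 0.05. Fold changes on this scale understate the change of low genes. For single genes an exact permutation test, two-sided, was used. On simulated data with 200 changed genes, the fit for LRP1 KO against WT was run on up to 11319 genes. It recovered 94.7% of changes of log2 1 and 99.5% of changes of log2 2, with 4.77% and 4.85% of the calls false. Noise was drawn for each gene separately, so differences between libraries that many genes share were not simulated.

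The 9 genes, the pathway lists and the marker lists were chosen with earlier results of these data known. Genes named were the 9, at most 4 called genes of each pathway list with the lowest adjusted p, relatives of the 9 in the PPAR, RXR, FABP, perilipin, CPT1, PDK and PGC-1 families with at least 1 FPKM in at least 4 libraries, the 2 nearest profiles of each tested gene with a log2 range of at least 1, and Lrp1. Some genes of the lists enter the counts but are not reported here by name. Marker genes, Trf, Alb and the other single markers were named after their values were seen. Marker scores are the mean log2(FPKM + 1) of a list. Of the lists, Angptl8, Adgre1, Spi1, Foxf1 and Xist were not matched in the table by symbol and were not used here. Summed markers of mural cells were 668 to 834 FPKM in WT and 1037 to 1624 FPKM in LRP1 KO, and those of alveolar epithelium 4.68 to 8.44 and 4.54 to 8.57 FPKM. Marker sums of heart, lung and liver endothelium were 15.1 to 25.7, 45.4 to 53.8 and 28.5 to 36.8 FPKM in WT and 21.1 to 101, 49.2 to 88.0 and 32.1 to 73.3 FPKM in LRP1 KO. Positions and the sharing of 50-base stretches between transcripts came from GENCODE M21 (GRCm38), promoters from RefSeq. Alternatives were other pseudocounts, other filters, rescaled libraries, no variance trend, a replicate block, marker scores as covariates and each library left out.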

Additional observations from a re-analysis of the deposited data

Results flagged for a closer look

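In 4 of 52 groups of 4 libraries examined, 1 library lay far from the other 3 by Dixon's test at the 95% level; chance gives about 1 in 20. Fabp5 in LRP1 KO library 2 was 354.8 FPKM, beside 266.9 to 277.5 FPKM in the other LRP1 KO libraries. Cpt1a in LRP1 KO library 4 was 35.9 FPKM, beside 33.3 to 33.7 FPKM. Lpl in LRP1 KO library 4 was 173 FPKM, with the others at 106 FPKM or less. Elovl1 in LRP1 KO library 3 was 88.4 FPKM, beside 85.0 to 85.5 FPKM. Of these 4, 2 were LRP1 KO library 4, whose endothelial marker sum lay within the WT range.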

How the results depend on the processing

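Cd36 was past the threshold in 16 of 17 alternatives, with a log2 fold change of 1.82 to 2.78 and adjusted p of 0.000319 to 0.0642. Pseudocounts of 0.1 and 0.5, rescaled libraries and a prior without a trend left each of the counts of called genes within 1.5 times. With no filter, 9 lipid genes fell, 3 of them synthesis genes. A filter of 5 FPKM left 113 genes called with a log2 fold change of at least 1 (184 with the filter as reported). With the endothelial score, 166 of all genes were called (142 higher, 24 lower, 95 with that fold change). Of the lipid genes 1 was called higher and 0 lower, none of mitochondrial oxidation or synthesis. Fabp4 turned to 0.055 and Cpt1a to 0.037, Pparg moved to -0.38 and Lpl to -0.37, none of them called. With the macrophage score, 26 were called (12 higher, 14 lower, 26 with that fold change), 0 of the 9 genes and 0 lipid genes in either direction. Lpl was -1.45 (adjusted p = 0.0773, limma) against -0.81 without the score, and Cd36 was 1.82 (adjusted p = 0.0642, limma). Pparg turned to 0.12, Fabp5 to -0.024 and Plin2 to -0.24, while Fabp4 moved to -0.45 and Angptl4 to -0.40, all uncalled. These scores raised the median standard error from 0.088 to 0.116 and 0.202, and the cause of the lost calls was not tested further.

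Without 1 library, 512 to 3021 genes were called, 280 to 1436 higher and 232 to 1585 lower, and 133 to 339 with that fold change; the highest of each came without LRP1 KO library 4. Lipid genes numbered 1 to 5 higher and 4 to 26 lower, with 2 to 11 falls in mitochondrial oxidation and 2 to 5 in synthesis. Of the uncalled genes, Fabp4 ranged from -0.094 to 0.027 and Angptl4 from -0.21 to 0.036, each above 0 only without LRP1 KO library 3, Cpt1a from -0.059 to 0.042, above 0 only without WT library 3, and Plin2 from -0.010 to 0.085, below 0 only without LRP1 KO library 4. Pdk4 ranged from -0.49 to -0.23 (without LRP1 KO library 1), Fabp5 from 0.19 (without LRP1 KO library 2) to 0.33, and Pparg from -0.24 to -0.038 (without LRP1 KO library 4).

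The replicate numbers of the titles did not pair the libraries: the correlations of deviations of same-numbered libraries were 0.158, 0.141, 0.340 and -0.312, and not every library correlated best with its own number. With the replicate block, 1013 genes were called, 520 of them lower; 2 of the 9 genes were called, Cd36 and Pdk4, the latter at -0.38 (adjusted p = 0.0496), and 3 synthesis genes fell. Ppargc1a was fitted only with no filter (log2 fold change -0.34, SE 0.12, adjusted p = 0.12), and Pparg was left out by the stricter filter. Depth is unknown, so genes near 1 FPKM, such as Cd36 in WT, carry a counting error that could not be computed.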

Other observations

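The lists held 135 genes found in the data, of which 105 were tested. Among those that the filter left out, 3 had groups that did not overlap and were picked for that after their values were seen, so no test is given. Groups did not overlap for 19.6% of all tested genes. Fabp7, the brain form of the fatty acid binding proteins, was 0.268 to 0.443 FPKM in WT and 0.880 to 1.73 FPKM in LRP1 KO. Apoc2, the activator of lipoprotein lipase, was 0.235 to 0.369 FPKM in WT and 0.854, 2.11, 0.540 and 4.34 FPKM across LRP1 KO libraries 1 to 4. Acox2, a peroxisomal oxidase of branched chains and bile acid precursors, was 0.168 to 0.380 FPKM in WT and 0.0715 to 0.132 FPKM in LRP1 KO. Cav1, which forms caveolae and is abundant in endothelium, was 157 to 257 FPKM in WT and 455, 313, 469 and 221 FPKM across LRP1 KO libraries 1 to 4 (log2 fold change 0.74, adjusted p = 0.0694, limma).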
